A study of Rattus norvegicus with 10 samples.

Results

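Adipogenic transcription factors are the DNA-binding proteins that turn a precursor cell into a fat cell and keep it one. The 10 genes described here are Pparg, Cebpa, Cebpb, Cebpd, Klf15, Klf5, Klf4, Ebf1, Nr1h3 and Rxra, out of 14217 genes with a probe set that the platform annotation ties to a single gene. Every probe set with 1 of these symbols was taken, which gave 23 of the 31042 probe sets tested. Another 3 probe sets named both Ebf3 and Ebf1 and were left out.

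Expression in white adipose tissue (WAT) was measured in 10 male rats, 13 weeks old, on 1 array per animal. The noodle group of 5 rats (animals 1, 4, 7, 10 and 13) was fed instant noodle with its seasonings as 30% of the weight of the food, with 26% of energy coming from fat. The 5 rats of the control group (animals 2, 5, 8, 11 and 14) were fed alike but with the seasonings left out, per the design text, although the treatment field repeats the noodle diet for every animal. Feeding was paired, at about 60 g per kg and day, and is given as 30 days in one label and 4 weeks in another, with 12 hours of light and of dark. The strain and the depot were not given in the sources used here, nor was the hour of sampling. The question was whether the seasonings alter lipid metabolism, and the comparison is noodle minus control throughout.

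In cultured mouse preadipocytes the cascade begins with Cebpb and Cebpd, which hormonal signals switch on first, helped by Klf4. These factors, with Klf5 and Ebf1, lead to Pparg and Cebpa, which activate each other and then the genes of lipid storage, insulin response and adipokine release. PPARG is a nuclear receptor that binds DNA as a pair with a retinoid X receptor such as that encoded by Rxra. The liver X receptor encoded by Nr1h3 uses the same partner and responds to oxidised sterols, while Klf15 acts late, on Pparg and on glucose and amino acid metabolism. In adult fat Pparg and Cebpa are read as a sign of the differentiated state.

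Of the 10 factors 7 could be compared between the diets, and none of the 7 differed beyond the spread of the animals. The other 3, Klf5, Nr1h3 and Rxra, had only probe sets that barely moved over the arrays, so no difference could be read from them. Of the 23 member probe sets, 0 reached an adjusted p of 0.05 (limma, with Benjamini-Hochberg adjustment over all 31042 probe sets), and over the whole table the share called was 0.0%. At an unadjusted p of 0.05 the count was also 0 of 23, where 4.77% of all probe sets were called (2.48% higher and 2.29% lower) and 8.13% of those that are not flat (2.8% higher and 5.33% lower). The smallest unadjusted p among them was 0.141, and the smallest adjusted p was 0.993. The noodle and control animals overlapped in all 23 of these probe sets, against a share without overlap of 0.718% over all probe sets and 0.959% over the non-flat ones. With 5 animals per group these results do not show that the diets act alike. The intervals given below are on the deposited scale, whose processing is unknown, so they do not bound the differences in RNA. In whole tissue a lower level can mean fewer cells of a type or less RNA per cell, which cannot be told apart.

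The values of many probe sets barely move. A probe set is called flat here when its SD over the 10 arrays is 0.01 log2 units or less, and 14 of the 23 member probe sets (60.9%) were flat, compared with 91.6% of all probe sets tested. The flat ones had SDs between 9.27e-05 and 0.00102, and the next value above the division was the 0.0149 of 1 Cebpa probe set. How the deposited values came to be this flat was not given in the sources used here, so sizes are on the deposited scale and are read within a probe set. Of the genes, 7 had a non-flat probe set, 9 probe sets in all, while Klf5, Nr1h3 and Rxra had flat ones only. The level of a flat probe set is given below as a level, and its difference between the diets carries no size.

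**Figure D1:**
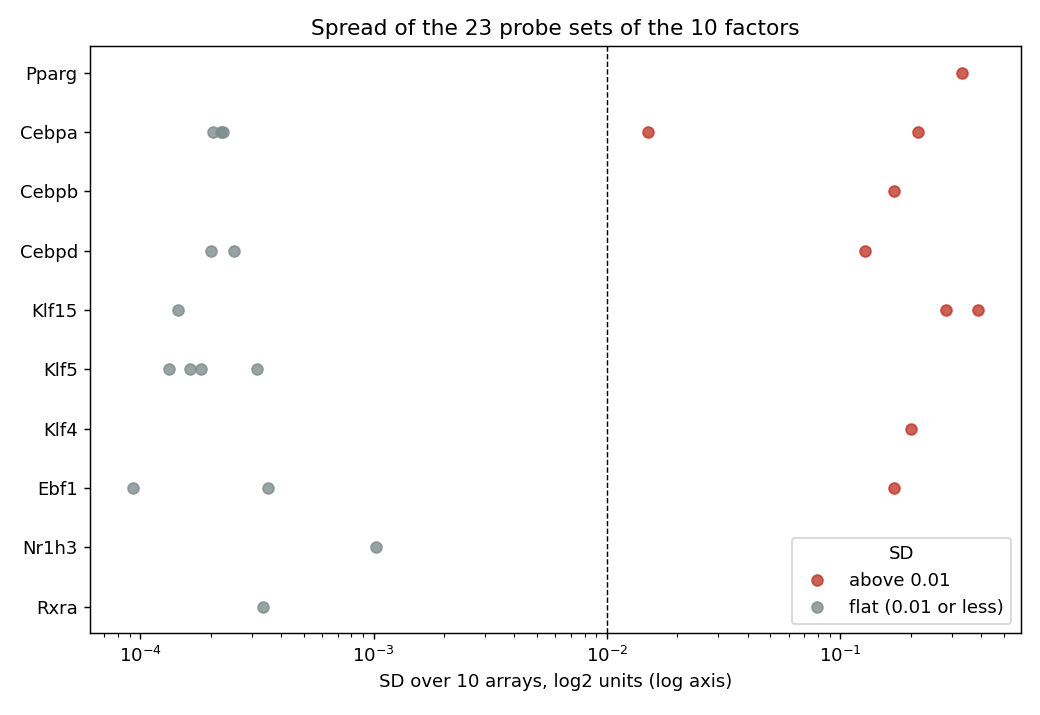
SD over the 10 arrays (log2 units, logarithmic axis) of each of the 23 probe sets, by gene. Red points are the 9 non-flat probe sets, from 0.0149 to 0.389, grey points the 14 flat ones, and the dashed line is the division at 0.01.

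The labelled tissue was set against markers of fat and of other cell types. All 14 adipocyte markers on a list drawn up for this comparison were measured, with a median level of 12.1 and Adipoq, the adiponectin gene, at 12.7, while 9 brain markers had a median of 5.70, below the array medians of 6.17 to 6.18. The extraction text of the labels speaks of brain, and of those 9 markers the 1 that is not flat, the myelin gene Mbp, stood at 8.76. These are levels of different probe sets, which describe the arrays and test nothing. The mean of the adipocyte markers, flat ones included, ranged from 11.3 to 11.5 in noodle animals and from 11.4 to 11.5 in control animals. Of the 14, 9 were not flat, and 0 reached an unadjusted p of 0.05. The 12 measured markers of adipose stem and stromal cells, 9 of them not flat, had means of 9.52 to 9.95 in noodle and 9.54 to 9.93 in control animals, again with 0 reaching it. The 13 macrophage markers stood at 8.45 to 8.91 in noodle and 8.34 to 8.86 in control animals, and 12 of 13 had a positive difference, 0 at that level. Of 7 non-flat mesothelial markers all 7 had a negative difference, 1 of them (Krt8) at an unadjusted p of 0.05, with list means of 6.23 to 6.87 in noodle and 6.19 to 7.38 in control animals. The 3 non-flat red blood cell markers were negative too, 1 of them (Alas2) at that level, with means of 7.91 to 8.16 in noodle and 8.04 to 8.38 in control animals. The 9 endothelial markers, 6 of them not flat, stood at 8.19 to 8.45 in noodle and 8.21 to 8.41 in control animals. The 6 brown adipocyte markers, 2 of them not flat, stood at 6.31 to 6.58 in noodle and 6.29 to 6.49 in control animals. Lymphocyte, skeletal muscle and brain markers had 0, 1 and 1 non-flat members. Control animal 14 had the lowest mean correlation with the other arrays, at 0.9948, against 0.9959 to 0.9969 for the other 9 animals, and differences without it stand beside those it moves most. A sign of RNA quality, the 3-prime minus 5-prime signal of the control probe sets for Actb and Gapdh, averaged 0.837 ± 0.069 in noodle and 0.950 ± 0.084 in control animals (SD, n = 5 each, two-sided exact permutation p = 0.0476).

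Pparg, the master regulator of fat cell formation, lies on chromosome 4 (GRCr8, 150095743 to 150221104) and is measured by 1 probe set, 1369179_a_at. It stood at 8.98, 9.40, 9.66, 9.98 and 10.11 log2 units in noodle animals 1, 4, 7, 10 and 13, and at 9.40, 9.79, 9.77, 9.81 and 9.86 in control animals 2, 5, 8, 11 and 14. The noodle animals thus spread on both sides of the controls, with 1 below every control and 2 above every control. The group means were 9.63 ± 0.46 in noodle and 9.73 ± 0.19 in control animals (SD, n = 5 each), a difference of -0.10 ± 0.21 (SE). On the fold scale the 95% interval runs from 0.667 to 1.31, which is on both sides of 1. Without noodle animal 1, the lowest of all 10, the difference was 0.0638, without noodle animal 13 it was -0.22, and without control animal 14 it was -0.0651.

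Klf15, a zinc-finger factor that helps to keep Pparg expressed in mouse fat cells and that glucocorticoids induce, had the largest SD over the 10 animals on the deposited scale, 0.389 log2 units. It lies on chromosome 4 (124522652 to 124535613) and has 3 probe sets, 1 of them flat. Probe set 1368249_at gave 7.57, 7.91, 8.09, 8.79 and 8.50 in noodle animals 1, 4, 7, 10 and 13, and 7.96, 8.50, 8.60, 7.85 and 8.29 in control animals 2, 5, 8, 11 and 14. Both the lowest and the highest animal belonged to the noodle group, a range of 1.22 log2 units. The means were 8.17 ± 0.48 in noodle and 8.24 ± 0.33 in control animals (SD, n = 5 each), and the difference of -0.07 ± 0.25 (SE) had an interval of 0.640 to 1.42-fold. The other non-flat probe set, 1381396_s_at, ordered the animals much alike, at 6.21 to 7.06 in noodle and 6.38 to 6.94 in control animals, with a difference of -0.00653 ± 0.184 that was -0.0107 without control animal 14. Over the 10 animals the pair had a Pearson correlation of 0.971 (permutation p = 2e-05, 4e-05 adjusted over 2 same-gene pairs) and a Spearman correlation of 0.952 (permutation p = 0.00013), and 0.945 without the 2 most distant animals. The spread of Klf15 was therefore seen by both sets of probes, although they may share transcript sequence, and without noodle animal 1 the difference of 1368249_at was 0.0799, and without control animal 8 it was 0.0193.

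The promoters of Klf15 and of Pparg are shown because these genes were the closest pair among the factors over the animals, as given further on. RefSeq sequences (GRCr8) were held for 9 of the 10 genes, in 10 windows, 2 of them for Pparg, called first and second by position. The windows of Klf15 and Pparg lie inside the gene bounds given above, so their starts are not the outermost ends of these genes. Each run gives the 250 bases before a start, on the + strand, 5′ to 3′, with the motifs named after them in capitals on either strand.
Klf15, chr4:124522765-124523014: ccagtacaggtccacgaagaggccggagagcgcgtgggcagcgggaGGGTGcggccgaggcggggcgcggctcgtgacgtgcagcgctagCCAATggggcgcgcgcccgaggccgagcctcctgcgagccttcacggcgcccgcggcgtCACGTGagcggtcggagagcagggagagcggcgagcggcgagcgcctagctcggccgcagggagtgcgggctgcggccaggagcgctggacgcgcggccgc
Pparg first start, chr4:150096808-150097057: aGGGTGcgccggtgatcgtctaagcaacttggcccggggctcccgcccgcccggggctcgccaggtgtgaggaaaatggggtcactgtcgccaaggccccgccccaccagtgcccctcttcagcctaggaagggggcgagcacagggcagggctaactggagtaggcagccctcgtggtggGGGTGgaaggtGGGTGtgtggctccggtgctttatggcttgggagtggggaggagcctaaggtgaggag
Pparg second start, chr4:150154522-150154771: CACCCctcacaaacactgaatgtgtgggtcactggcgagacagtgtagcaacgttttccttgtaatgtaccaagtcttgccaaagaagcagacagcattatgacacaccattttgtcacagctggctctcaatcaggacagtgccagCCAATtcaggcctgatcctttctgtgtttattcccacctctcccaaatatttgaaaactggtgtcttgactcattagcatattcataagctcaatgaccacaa
The Klf15 window holds the E-box CACGTG, which clock factors bind, beginning 101 bases before the start. It is found in no other member window and in 5.59% of the 33469 promoter windows. The letters CACCC, part of many Krüppel-like factor sites, occur in all 3 windows shown, in 8 of the 10 member windows and in 49.2% of all. CCAAT occurs in the Klf15 window, the second Pparg window and the Klf5 window, and in 34% of all. The nuclear receptor site AGGTCA occurs in 0 of the 10 member windows and in 14.1% of all. The direct repeat that PPARG and RXR pairs bind, that site given 2 times with 1 base between, is in 0 member windows and 0.0508% of all. The C/EBP palindrome TTGCGCAA is in 0 member windows and 0.14% of all. The letters TATAA occur in the windows of Cebpa, Nr1h3, Cebpb and Klf4, and in 24% of all. Both strands were searched, the single receptor site also lies within the direct repeat, and the letters are a description and not a measure of binding.

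Cebpa, the partner of Pparg in the final step and the factor that gives fat cells their insulin response, has 5 probe sets on chromosome 1 (96896584 to 96899256), of which 3 were flat. Probe set 1384127_at read 10.16, 10.32, 10.19, 10.50 and 10.46 in noodle animals 1, 4, 7, 10 and 13, and 10.33, 10.58, 10.43, 10.26 and 9.83 in control animals 2, 5, 8, 11 and 14. All noodle animals fell inside the control range, whose lower end is control animal 14. The means were 10.32 ± 0.16 in noodle and 10.29 ± 0.28 in control animals (SD, n = 5 each), a difference of 0.04 ± 0.14 (SE) that became -0.0761 without control animal 14 and -0.00604 without noodle animal 10. The second non-flat probe set, 1383242_a_at, moved over only 0.0568 log2 units, from 9.99 to 10.05 in noodle and from 10.02 to 10.03 in control animals. The 2 Cebpa probe sets had a Pearson correlation of 0.406 (permutation p = 0.232) and a Spearman correlation of 0.442 (permutation p = 0.203) over the 10 animals, and 0.201 without the 2 most distant ones. The 3 flat probe sets of this gene stood at 7.73, 9.68 and 9.79 in every animal.

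**Figure D2:**
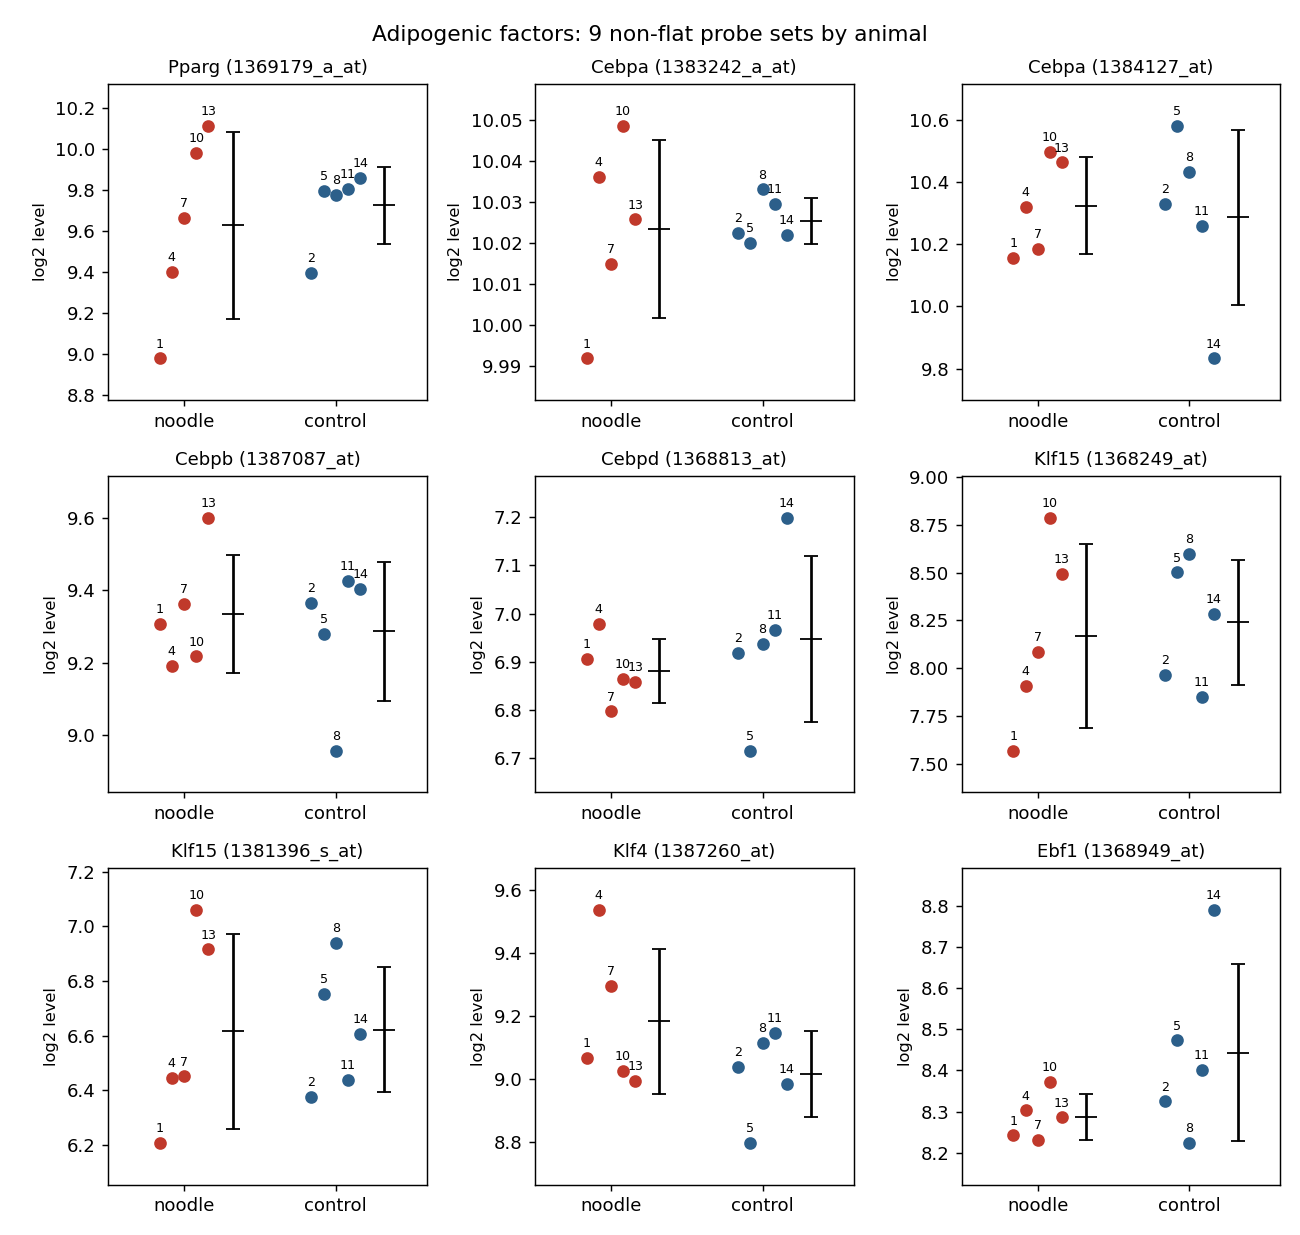
Log2 level of the 9 non-flat probe sets in each animal (numbered points, noodle in red and control in blue), with the group mean and SD as bars. The groups overlap in each panel, Pparg and Klf15 spread most within the noodle group, and control animal 14 is the highest for Cebpd and Ebf1 and the lowest for Cebpa 1384127_at.

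Cebpb and Cebpd are the early factors of the cascade, and in adult tissue they also respond to inflammation and hormones. For Cebpb, on chromosome 3 (176817005 to 176818436), probe set 1387087_at read 9.31, 9.19, 9.36, 9.22 and 9.60 in noodle animals 1, 4, 7, 10 and 13, and 9.37, 9.28, 8.96, 9.43 and 9.40 in control animals 2, 5, 8, 11 and 14. Noodle animal 13 was above every control and control animal 8 was below every noodle animal. The means of 9.34 ± 0.16 in noodle and 9.29 ± 0.19 in control animals (SD, n = 5 each) differed by 0.05 ± 0.11 (SE), and by -0.0327 without control animal 8, -0.0167 without noodle animal 13, while leaving out control animal 14 gave 0.0785. For Cebpd, on chromosome 11 (98268856 to 98269994), probe set 1368813_at read 6.91, 6.98, 6.80, 6.86 and 6.86 in noodle animals 1, 4, 7, 10 and 13, and 6.92, 6.72, 6.94, 6.97 and 7.20 in control animals 2, 5, 8, 11 and 14. The noodle animals lay close together within the control range, whose upper end is control animal 14. The means of 6.88 ± 0.07 in noodle and 6.95 ± 0.17 in control animals (SD, n = 5 each) differed by -0.07 ± 0.08 (SE), and by -0.00366 without control animal 14. Its flat probe sets stood at 7.03 and 5.61.

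Klf4, a zinc-finger factor that helps to switch on Cebpb in mouse preadipocytes and is also active in other cell types of the tissue, lies on chromosome 5 (75074107 to 75079182). Probe set 1387260_at read 9.07, 9.54, 9.30, 9.03 and 8.99 in noodle animals 1, 4, 7, 10 and 13, and 9.04, 8.80, 9.12, 9.15 and 8.98 in control animals 2, 5, 8, 11 and 14. Noodle animals 4 and 7 were above every control, while the other 3 lay within the control range. The means of 9.18 ± 0.23 in noodle and 9.02 ± 0.14 in control animals (SD, n = 5 each) differed by 0.17 ± 0.12 (SE), with an interval of 0.934 to 1.35-fold and an unadjusted p of 0.185. Without noodle animal 4 the difference was 0.0793.

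Ebf1, which acts upstream of Pparg and Cebpa in mouse preadipocytes, had the smallest p of the members. It lies on chromosome 10 (29597221 to 29990571), and probe set 1368949_at read 8.24, 8.30, 8.23, 8.37 and 8.29 in noodle animals 1, 4, 7, 10 and 13, and 8.32, 8.47, 8.22, 8.40 and 8.79 in control animals 2, 5, 8, 11 and 14. The noodle animals formed a narrow band in the lower part of the control range. The means of 8.29 ± 0.06 in noodle and 8.44 ± 0.22 in control animals (SD, n = 5 each) differed by -0.16 ± 0.10 (SE), with an interval of 0.771 to 1.04-fold and an unadjusted p of 0.141. Without control animal 14 the difference was -0.0694, and without control animal 8 it was -0.21. The other 2 Ebf1 probe sets were flat, at 9.48 and 9.21.

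The receptors Nr1h3 and Rxra and the early factor Klf5 gave no usable difference. Nr1h3, on chromosome 3 (97614616 to 97632053), stood at 8.50 on every array, with an SD of 0.00102. Rxra, on chromosome 3 (31387892 to 31474415), stood at 6.56, and the 4 probe sets of Klf5, on chromosome 15 (82472081 to 82487267), at 5.23 to 5.57, below the array medians. Over all 14 flat member probe sets the largest absolute difference between the diets was 0.000269 log2 units, that of Nr1h3, with 5 positive and 9 negative. Among the 9 non-flat ones 3 differences were positive and 6 negative, with a median of -0.00653, against -0.0121 over all non-flat probe sets.

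**Figure D3:**
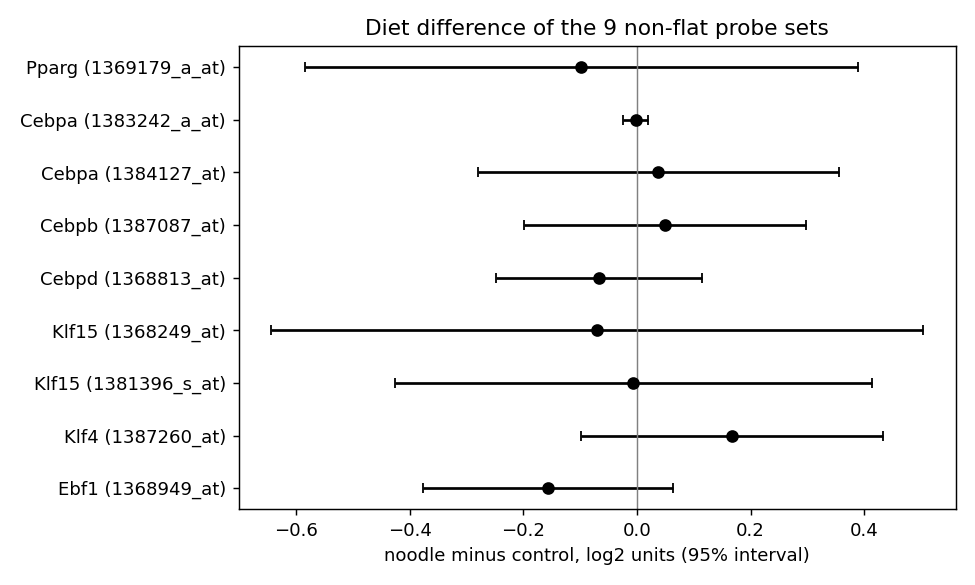
Noodle minus control difference (log2 units) of the 9 non-flat probe sets, with 95% intervals from limma (n = 5 per group). Each interval spans 0, and the widest are those of Klf15 1368249_at and Pparg.

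Across animals, regardless of diet, the closest pair was Pparg and Klf15. Between the leading non-flat probe sets of the 7 genes, 21 pairs were computed, and 0 of the 21 reached an adjusted p of 0.05. For Pparg and Klf15 the Pearson correlation over 10 animals was 0.806 (permutation p = 0.00383, adjusted p = 0.0804 over the 21 pairs) and the Spearman correlation was 0.612 (permutation p = 0.0658, adjusted p = 0.501). It was 0.641 without noodle animal 1 and control animal 2, the 2 farthest from the median of Pparg (n = 8, exact permutation p = 0.0807), and 0.692 without noodle animal 1 alone (n = 9, exact permutation p = 0.0414, adjusted p = 0.410). Taken as deviations from the diet means it was 0.804 (exact permutation p = 0.0188, adjusted p = 0.395). Noodle animal 1 was the lowest of all 10 for both genes, and noodle animals 10 and 13 were the highest in Pparg and above the median in Klf15.

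**Figure D4:**
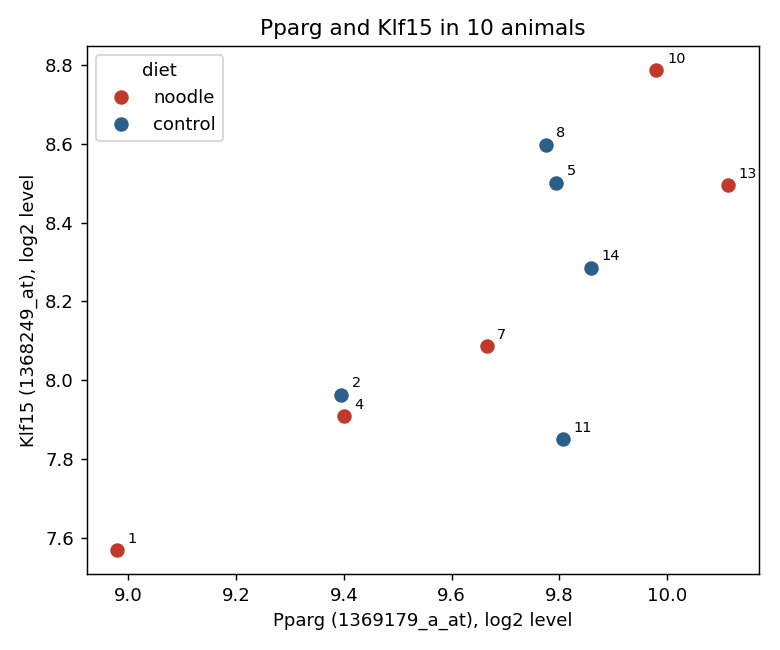
Level of Klf15 (1368249_at, vertical axis, log2) against Pparg (1369179_a_at, horizontal axis, log2) in the 10 numbered animals, noodle in red and control in blue. Noodle animal 1 is lowest on both axes at 8.98 and 7.57, and control animal 11 has a Pparg level of 9.81 with a Klf15 level of 7.85.

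The remaining pairs had smaller Pearson correlations. Cebpa and Cebpd had a Pearson correlation of -0.770 (permutation p = 0.0154, adjusted p = 0.162) and a Spearman correlation of -0.539 (permutation p = 0.116, adjusted p = 0.501), and it came to 0.00942 without control animals 14 and 5, so the relation rests on those animals. In control animal 14 Cebpd and Ebf1 were the highest and Cebpa the lowest of all 10, and in control animal 5 Cebpa was the highest and Cebpd and Klf4 the lowest. Cebpa and Klf15 had a Spearman correlation of 0.685 (permutation p = 0.0346, adjusted p = 0.501) and a Pearson correlation of 0.489 (permutation p = 0.152), which was 0.888 without control animals 14 and 5 (n = 8, exact permutation p = 0.0059, adjusted p = 0.124). Pparg and Cebpa, which activate each other in cultured cells, had a Pearson correlation of 0.272 (permutation p = 0.440) and a Spearman correlation of 0.370 (permutation p = 0.297). Of the 21 correlations 10 were positive and 11 negative.

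**Figure D5:**
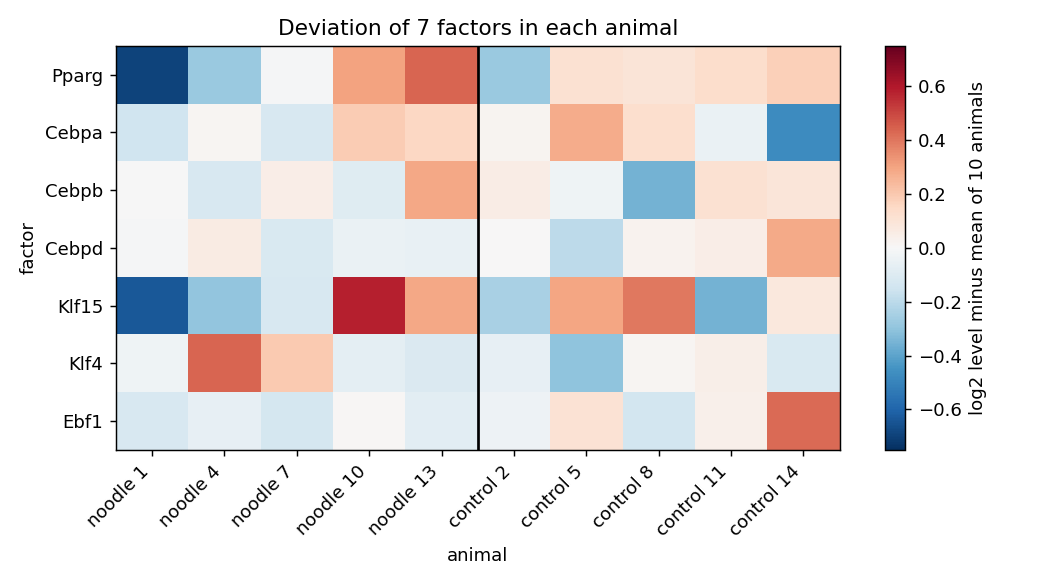
Deviation of the leading non-flat probe set of 7 factors from its mean over 10 animals (log2 units, colour), with noodle animals left of the line and control animals right. Noodle animal 1 is low for Pparg and Klf15, and control animal 14 is high for Ebf1 and Cebpd and low for Cebpa.

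The genes whose deviations from the diet means ran closest to each factor were ranked over 1779 genes with a non-flat probe set, as a description with no p. For Klf15 they were Bhlhe41, a repressor of the circadian clock (r = 0.944), Inhbb, which encodes an activin subunit (r = 0.935), and Jade1 (r = 0.933). Bhlhe41 stood at 6.70, 7.04, 7.17, 8.01 and 8.03 in noodle animals 1, 4, 7, 10 and 13, and at 7.81, 8.24, 8.32, 7.54 and 8.39 in control animals 2, 5, 8, 11 and 14. Within the noodle group it was, like Klf15, lower in animals 1, 4 and 7 than in animals 10 and 13. Noodle animals 10 and 13 lay inside the control range for Bhlhe41, while noodle animal 10 was above every control for Klf15. The diet difference of Bhlhe41 was -0.67 ± 0.30 (SE, limma unadjusted p = 0.0571, adjusted p = 0.993). Inhbb and Jade1 were lower in the noodle group too. Inhbb differed by -0.32 ± 0.11 (SE, limma unadjusted p = 0.0184, adjusted p = 0.993). Jade1 differed by -0.15 ± 0.07 (SE, limma unadjusted p = 0.0628, adjusted p = 0.993). For Pparg the closest were Dock4 (r = 0.959), the ceramidase gene Acer2 (r = 0.903) and Tob1, a gene that restrains cell division (r = 0.903). Dock4 moved little, between 6.38 and 6.41 over the 10 animals, with an SD of 0.0086 in noodle and 0.0066 in control animals. Its diet difference was -0.0179 ± 0.0047 (SE, limma unadjusted p = 0.00459, adjusted p = 0.971). Acer2 differed by 0.15 ± 0.18 (SE) and Tob1 by -0.08 ± 0.19 (SE).

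For Klf4 the list was Lrrc17 (r = 0.927), the phosphatase gene Ptprj (r = 0.914) and Jun, an immediate early gene (r = 0.905). Jun stood at 8.40, 9.19, 8.83, 8.60 and 8.61 in noodle animals 1, 4, 7, 10 and 13, and at 8.63, 8.23, 8.60, 8.94 and 8.60 in control animals 2, 5, 8, 11 and 14, so noodle animal 4 was the highest and control animal 5 the lowest for Jun as for Klf4. Cebpd ran with Tgfb3 (r = 0.971), the complement gene C1s (r = 0.968) and Irak3 (r = 0.952), Ebf1 with Kmt2e (r = 0.979), Ube2e2 (r = 0.948) and Nsfl1c (r = 0.944), and Cebpa with Pcbd2 (r = 0.916), Pxdn (r = 0.899) and Slc35b4 (r = 0.894). Cebpb ran with the lipoprotein receptor gene Scarb1 (r = 0.923), the apolipoprotein gene Apoc3 (r = 0.894) and Bmp3 (r = 0.874). Lrrc17 (6.82 to 6.85 over the 10 animals), Pcbd2 (8.66 to 8.72) and Bmp3 (6.21 to 6.27) also moved little. The highest of so many candidates over 10 animals is high by selection, and all points share the same arrays.

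Levels of other cell types were set beside the 7 factors in 77 correlations with 10 marker lists and the RNA quality measure, of which 0 reached an adjusted p of 0.05 and 11 an unadjusted one. These relations were chosen after the data were examined, and 7 of them use the lymphocyte list, which has 0 non-flat members. Over the other 70 the count was also 11 unadjusted and 0 adjusted, with a smallest adjusted p of 0.201 (permutation). Klf4 ran against the adipocyte markers, with a Pearson correlation of -0.789 (permutation p = 0.00351, adjusted p = 0.221), a Spearman correlation of -0.721 (permutation p = 0.0235, adjusted p = 0.260) and -0.574 without noodle animal 4 and control animal 5. As deviations from the diet means it was -0.963 (exact permutation adjusted p = 0.0642). Klf4 ran against the brain markers, where only Mbp is not flat, almost as far, with a Pearson correlation of -0.782 (permutation p = 0.00897, adjusted p = 0.221), a Spearman correlation of -0.709 (permutation p = 0.0270) and -0.303 without the same animals. With the stromal cell markers Cebpd had a Pearson correlation of 0.740 (permutation p = 0.00979, adjusted p = 0.221), a Spearman correlation of 0.709 (permutation p = 0.0265) and 0.563 without control animals 14 and 5. For Cebpa and the same markers they were -0.745 (permutation p = 0.0115, adjusted p = 0.221), -0.806 (permutation p = 0.0072) and -0.543. Cebpa and the brown adipocyte markers had a Pearson correlation of 0.717 (permutation p = 0.017, adjusted p = 0.247), and 0.780 without control animals 14 and 5. Only 2 of those 6 markers are not flat. They are Ucp1, at 5.91 and below the array medians, and Cidea, which is also on the adipocyte list. Pparg had 0.707 with the skeletal muscle and 0.704 with the brain markers, and 0.738 and 0.728 without noodle animal 1 and control animal 2. The rest of the 11 links weakened without the 2 farthest animals. The part of cell makeup in the animal to animal spread was not tested.

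The other genes of the pathway gave no difference that passed adjustment. Of 138 measured genes on 7 lists of targets, relatives, coregulators and opposing factors, 0 passed and 11 reached an unadjusted p of 0.05. That is a larger share than the 4.48% of all genes, but on lists chosen with earlier results of these data known. The lists are also richer in non-flat genes, at 59 of 138 against 1632 of all 14217 genes. The count of 11 fell to 6 with quantile normalization and to 6 with centring, so no excess is read from it. Among the 59 with a non-flat probe set, 6 (10.2%) reached an unadjusted p of 0.05. The share was 7.66% over all genes with a non-flat leading probe set. The rest of the 11 had flat probe sets, whose differences carry no size. On the list of PPARG and C/EBPA targets 22 genes were non-flat, 9 of them positive and 13 negative. The 3 that reached an unadjusted p of 0.05 were Cd36, Mgll and Gpihbp1. The product of Cd36 takes up fatty acids, that of Mgll acts in lipolysis and that of Gpihbp1 on lipoprotein lipase. Cd36 averaged 11.78 ± 0.02 in noodle and 11.74 ± 0.02 in control animals (SD, n = 5 each), a difference of 0.0369 log2 units. Mgll averaged 10.94 ± 0.11 in noodle and 11.12 ± 0.12 in control animals, and Gpihbp1 9.15 ± 0.07 in noodle and 9.27 ± 0.08 in control animals (SD, n = 5 each). Slc2a4, the insulin-responsive glucose transporter, differed by 0.13 ± 0.14 (SE), and the classic targets Fabp4, Adipoq, Lpl, Plin1 and Cidec had flat probe sets at 13.3, 12.7, 13.1, 12.0 and 12.2.

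Targets of the liver X receptors gave 0 of 6 non-flat genes at an unadjusted p of 0.05. Abcg1, a cholesterol exporter, differed by -0.15 ± 0.15 (SE), Srebf1 by -0.00227 ± 0.135 and Pltp, a phospholipid transfer protein, by 0.19 ± 0.15 and Scarb1 by -0.13 ± 0.11, while Abca1 had a flat probe set at 7.37. Without control animal 14 Pltp differed by 0.32, Scarb1 by -0.08 and Srebf1 by 0.02. Among the relatives of the 10 factors the count was 0 of 6, with the receptor partner Rxrg at 0.05 ± 0.17, Klf2 at 0.03 ± 0.09 and Klf9, which glucocorticoids induce, at -0.24 ± 0.16. Coregulators gave 0 of 3, with Nrip1 at -0.05 ± 0.08, Tle3 at 0.02 ± 0.08 and Lpin1 at -0.17 ± 0.08. Without control animal 14 Rxrg stood at -0.06, Nrip1 at -0.09 and Tle3 at -0.02.

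Other factors that favour fat cell formation held 2 of 7 non-flat genes at that level, both lower in the noodle group. Nfib, a nuclear factor, stood at 9.51, 9.56, 9.42, 9.61 and 9.49 in noodle animals 1, 4, 7, 10 and 13, and at 9.61, 9.86, 9.74, 9.58 and 9.70 in control animals 2, 5, 8, 11 and 14, a difference of -0.18 ± 0.06 (SE, limma unadjusted p = 0.0157, adjusted p = 0.993). Lmo4, a cofactor, stood at 10.22, 10.01, 10.45, 10.16 and 10.33 in the noodle animals and at 10.23, 10.59, 10.61, 10.35 and 10.76 in the control animals, in the same order, a difference of -0.27 ± 0.12 (SE, limma unadjusted p = 0.0467, adjusted p = 0.993). Noodle values lay below every control in 4 of 5 animals for Nfib and in 3 of 5 for Lmo4. Bmp4, a growth factor of the fat lineage, differed by -0.38 ± 0.23, and by -0.17 without control animal 14. Factors that restrain fat cell formation gave 0 of 6, with Hes1 at -0.15 ± 0.16, Id2 at -0.04 ± 0.11 and Ccnd1 at 0.09 ± 0.14, and without control animal 14 Id2 stood at 0.03 and Ccnd1 at 0.06. Genes induced by glucocorticoids and cyclic AMP, the signals that start differentiation in culture, gave 1 of 13, the metallothionein gene Mt2A, at 7.35 ± 0.27 in noodle and 7.69 ± 0.18 in control animals (SD, n = 5 each). The clock gene Per1 of the same list differed by -0.30 ± 0.20 (SE).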

How the data were processed

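White adipose tissue of 10 rats was profiled on 1 array each, from 100 ng of total RNA per the labels' protocols. The authors deposited a table of 31099 probe sets by 10 arrays, whose values were read as log2 because of where they lie. Log base, normalization, background correction and summarisation were not given in the sources used here, so that how they shape the values is unknown. The 57 array controls were left out of the tests. Symbols come from the platform annotation, with 20826 probe sets tied to 1 gene, 436 to several and 9780 to none, and coordinates are those of RefSeq for GRCr8.

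Groups follow the diet label. All 31042 probe sets entered lmFit and eBayes (constant prior, two-sided) of limma 3.58.1 under R 4.3.3 and the members read out. For genes with several probe sets the one with the highest mean represented the gene in lists. Correlations used 100000 permutations, or every permutation where n was under 10 and, for deviations from the diet means, every permutation within the diets. The members and lists were chosen with earlier results of these data known. Every member probe set is reported, and of the lists the non-flat genes with the smallest p, up to 3 per list, plus 10 classic target genes. The likeness rule took the 3 genes with the highest correlation for each factor. The fit was tested on simulated data. Alternatives were quantile normalization, centring on array medians, a filter on dim probe sets, an intensity trend with a robust prior, array weights, the 3-prime minus 5-prime difference as a covariate, non-flat probe sets only, other limits for flat, another probe set per gene and leaving out each animal. The labels do not say whether the animals of a group were housed or processed apart, and the 5 arrays per group limit the precision.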

Additional observations from a re-analysis of the deposited data

Results flagged for a closer look

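Over 40 groups of 5 animals (9 non-flat probe sets, 10 marker list means and the RNA quality measure, in each diet) 2 held an animal that stood apart from its group, and about 2 such groups (1 in 20) come by chance. In control animal 2, Pparg stood at 9.40, against 9.77 to 9.86 in the other 4 control animals. For the red blood cell markers the mean was 7.91 in noodle animal 4, while the rest of the noodle group lay between 8.10 and 8.16.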

How the results depend on the processing

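Of 153 recomputed differences of the 9 non-flat member probe sets, 130 kept their direction, 23 turned and 0 passed the threshold (lowest adjusted p 0.360). With array weights the difference was 0.0814 for Pparg, 0.00459 for Cebpa 1383242_a_at, 0.195 for Klf15 1368249_at and 0.174 for Klf15 1381396_s_at. With the 3-prime minus 5-prime covariate it was 0.00572 for Cebpa 1383242_a_at, -0.0767 for Cebpb, 0.0334 for Klf15 1368249_at and 0.0661 for Klf15 1381396_s_at, and with quantile normalization 0.00566 for Cebpa 1383242_a_at. That covariate, which differs between the diets, also moved Cebpa 1384127_at to 0.278 (limma unadjusted p = 0.0710, adjusted p = 0.753), Cebpd to -0.184 (limma unadjusted p = 0.0679, adjusted p = 0.753) and Pparg to -0.157, and array weights moved Cebpb to 0.0206, Cebpa 1384127_at to 0.0644 and Ebf1 to -0.0929. Leaving out 1 animal gave -0.220 to 0.0638 for Pparg, -0.00827 to 0.00594 and -0.0761 to 0.111 for Cebpa 1383242_a_at and 1384127_at, -0.0327 to 0.0853 for Cebpb, and -0.225 to 0.0799 and -0.118 to 0.0955 for Klf15 1368249_at and 1381396_s_at. Klf4 (0.0793 to 0.216), Ebf1 (-0.211 to -0.0694) and Cebpd (-0.124 to -0.00366) kept their sign under every alternative run. The cause of these turns was not tested. Array weights, and leaving out control animal 5, each brought 1 member probe set to an unadjusted p of 0.05, the flat Cebpa probe set 1369658_at (0 to 1 over the animals left out). Over all probe sets 0 to 1 passed when 1 animal was left out, the 1 without control animal 14. The 11 genes of the lists at an unadjusted p of 0.05 became 6 with quantile normalization, 6 with centring, and 6 to 12 when 1 animal was left out, with the 6 reached without noodle animal 7. The RNA quality difference of -0.113 was -0.144 to -0.0848 without single animals (exact permutation p = 0.0159 to 0.103). Quantile normalization left 9 of the 14 flat member probe sets flat. Under quantile normalization 18, and under centring 19, of the 21 genes named for likeness remained. No paired analysis was possible because the groups share no animal numbers and which animals were fed as pairs was not given in the sources used here.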
